A study of Homo sapiens with 2 samples.

Results

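The 9 genes CDR1, GFAP, MT3, NTRK2, BEX3, BEX1, SYT1, SOX2 and MBP, all known from nervous tissue, were taken from a table of 36814 gene starts in K562 cells. They were picked by name with their reads in view, most having 0 reads in untreated cells and many in cells given DMSO, so their counts below are a description and carry no test. K562 is an established human chronic myelogenous leukaemia line that is not neural. Nascent RNA was measured by PRO-seq. In this assay engaged polymerases add biotin-tagged nucleotides to the RNA they are making, here for 5 min at 30 °C, and the tagged RNA is captured for sequencing. There were 2 libraries. The first came from K562 cells kept in 0.1% DMSO, a common drug solvent, for 1 h (4154920 reads), and the second from untreated K562 cells (2136291 reads).

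The label "read with DMSO only" held for 8 of the 9 genes. Those 8 had 61 to 2985 reads in the DMSO library and 0 in the untreated library, while MBP had 8 reads with DMSO and 1 untreated. Over all 36814 windows, 2.69% had at least 10 DMSO reads and 0 untreated reads. With 1 library a treatment there is no replicate check. Every difference below is between 2 libraries and not between conditions.

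As background, these genes mark different cells of the nervous system. GFAP and MT3 are known from astrocytes, SYT1 from neurons, MBP from the myelin of oligodendrocytes and SOX2 from neural progenitors. NTRK2 is the receptor for the neurotrophin BDNF, and BEX1 and BEX3 are small brain-expressed proteins of an X-linked family. The CDR1 locus is known for a circular RNA of the opposite strand, abundant in brain, that is processed from the LINC00632 transcript and binds the microRNA miR-7, and that miR-671 can cleave.

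Each value is the number of reads in a window of 6000 bases that reaches 3000 bases to either side of a gene's annotated start on hg38. The windows of all 9 genes share no base with another window, so none lost reads to a neighbour. RefSeq entries of the same name (assembly GRCh38.p14) were found for 8 of the 9, the exception being CDR1, and promoter sequences for 6. The promoters of BEX1 and BEX3 are shown because both genes were read with DMSO only and their sequences are alike. The capitals mark the longest stretch that they share, 35 bases, and the palindrome CACGTG. They lie at chrX:103064122-103064421 on the minus strand and chrX:103376288-103376587 on the plus strand of GRCh38.p14, per RefSeq, and are written 5′ to 3′ from 250 bases before the start to 50 after it.
BEX1: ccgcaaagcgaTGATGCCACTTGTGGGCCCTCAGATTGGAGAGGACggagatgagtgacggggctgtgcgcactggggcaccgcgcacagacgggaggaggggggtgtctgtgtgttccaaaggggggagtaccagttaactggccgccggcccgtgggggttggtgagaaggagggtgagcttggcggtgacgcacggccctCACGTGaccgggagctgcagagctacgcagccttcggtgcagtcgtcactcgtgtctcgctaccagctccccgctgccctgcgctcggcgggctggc
BEX3: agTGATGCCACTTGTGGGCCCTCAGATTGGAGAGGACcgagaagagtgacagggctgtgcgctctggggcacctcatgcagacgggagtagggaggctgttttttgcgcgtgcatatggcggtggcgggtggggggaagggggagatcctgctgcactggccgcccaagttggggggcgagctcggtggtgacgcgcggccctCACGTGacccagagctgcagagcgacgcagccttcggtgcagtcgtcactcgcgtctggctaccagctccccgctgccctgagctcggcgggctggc

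Aligned end to end, the BEX1 and BEX3 promoters were identical at 239 bases and differed at 36, so that 86.9% of the aligned pairs were equal, with 50 bases in gaps. The shared 35 bases occurred in 3 promoters of the 35116 in the table, all of them of BEX1 or BEX3. Reads from such stretches could be split between the copies, so the counts of BEX1 and BEX3 relative to each other are uncertain.

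The promoter of SOX2 (chr3:181711675-181711974, plus strand) is shown because its window holds the whole gene. Its capitals mark ACAAAG, a core that SOX proteins are known to bind, and CCAAT, read on either strand. The promoter of MBP (chr18:77132734-77133033, minus strand) is shown because MBP is the gene that went against the label. Its capitals mark the GC box GGGCGG on either strand.
SOX2: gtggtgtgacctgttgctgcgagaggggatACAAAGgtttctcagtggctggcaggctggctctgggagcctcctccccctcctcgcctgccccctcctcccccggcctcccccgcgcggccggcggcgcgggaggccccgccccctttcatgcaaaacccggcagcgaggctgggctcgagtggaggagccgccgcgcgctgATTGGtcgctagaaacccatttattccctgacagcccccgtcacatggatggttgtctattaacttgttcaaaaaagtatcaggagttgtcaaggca
MBP: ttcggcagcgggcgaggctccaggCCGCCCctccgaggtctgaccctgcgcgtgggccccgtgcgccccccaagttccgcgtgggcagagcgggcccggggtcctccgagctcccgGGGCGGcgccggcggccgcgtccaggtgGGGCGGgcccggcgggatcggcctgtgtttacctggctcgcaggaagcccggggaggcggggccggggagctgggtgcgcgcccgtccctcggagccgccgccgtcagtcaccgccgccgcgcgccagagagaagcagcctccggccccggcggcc

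The windows of the members held 10 RefSeq promoters of 6 genes. NTRK2 and BEX3 have 3 each, so these 2 genes are counted more than once. The motif CCAAT was found in 7 of the 10, from 5 genes, and in 34.6% of all promoters. GGGCGG was found in 7 of the 10, also from 5 genes, and in 45% of all. Neither TATAAA (11.5% of all promoters) nor the element parts TTCAGCACC (0.376%) and GACAGCGCC (0.558%) bound by the neuronal silencer REST were found in any of the 10. ACAAAG was found in 1 of them, that of SOX2, and in 16.1% of all promoters. CACGTG was found in the promoters of BEX1 and BEX3 alone among the members and in 7.26% of all. Motifs were searched on both strands. Some overlap, as CACGTG is also a case of CANNTG, which 6 of the 10 and 68.7% of all promoters held. These matches describe letters in a window and no binding.

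CDR1 stood far above the other genes. Its window (chrX:140781367-140787366, ENSG00000184258.7) had 2985 reads with DMSO (exact 95% Poisson interval 2879 to 3094), against 0 untreated reads (interval 0 to 3.69). In CPM, a count scaled to the total of its library, these were 718 CPM with DMSO, against 0 CPM untreated, where 3 reads would be 1.40 CPM. The DMSO count ranked 18 among all windows and came first among those with 0 untreated reads. It made up 72.2% of the 4137 DMSO reads of the 9 genes together, which had 1 untreated read in all.

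The counts at CDR1 were not matched by counts at the start of LINC00632, whose RefSeq gene overlaps the CDR1 window. The LINC00632 window, 68.8 kb away, had 1 read with DMSO and 0 untreated. On the other side the next window, AL451048.1, had 3 with DMSO and 0 untreated. The table does not give the strand of a read, and the reads at CDR1 cannot be divided among CDR1, LINC00632 and the circular RNA. The mature microRNAs known to pair with that circular RNA are shown with their seeds, bases 2 to 8, in capitals (RefSeq, GRCh38.p14).
hsa-miR-7-5p: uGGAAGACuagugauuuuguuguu
hsa-miR-671-5p: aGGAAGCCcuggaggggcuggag

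The gene starts of miR-7 hosts had few reads. MIR7-3HG, which holds a miR-7 gene, had 6 reads with DMSO and 1 untreated. HNRNPK, another host, had 2 reads with DMSO and 0 untreated in a window with only 94 bases of its own. AGO2, the slicing Argonaute protein, had 10 reads with DMSO and 5 untreated in a window with 647 bases of its own.

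The astrocyte genes came next. GFAP, the intermediate filament protein of astrocytes (chr17:44913938-44919937, ENSG00000131095.13), had 514 reads with DMSO (interval 471 to 560.4) and 0 untreated. MT3, a metallothionein of brain that binds zinc and copper (chr16:56586074-56592073, ENSG00000087250.8), had 188 with DMSO (interval 162 to 217) and 0 untreated. Both were thus read in the DMSO library alone. The GFAP window holds 12.7% of the RefSeq gene and also overlaps LOC105371793, and its reads cannot be divided between them. The MT3 window holds all 1558 bases of its gene.

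Genes of signalling and synapses were lower. NTRK2, the receptor tyrosine kinase TrkB (chr9:84665551-84671550, ENSG00000148053.16), had 119 reads with DMSO (interval 98.6 to 142) and 0 untreated. BEX3, a partner of the p75 neurotrophin receptor (chrX:103373340-103379339, ENSG00000166681.13), had 108 with DMSO (interval 88.6 to 130.4) and 0 untreated. SYT1, the calcium sensor of synaptic vesicle release (chr12:78860993-78866992, ENSG00000067715.14), had 80 with DMSO (interval 63.4 to 99.6) and 0 untreated. The intervals of NTRK2 and BEX3 overlap, as do those of BEX3 and SYT1, so their order in the DMSO library is not fixed by the counts.

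BEX1 (chrX:103061172-103067171, ENSG00000133169.6) had 74 reads with DMSO (interval 58.1 to 92.9) and 0 untreated. SOX2, a transcription factor of neural progenitors and pluripotent cells (chr3:181708925-181714924, ENSG00000181449.4), had 61 with DMSO (interval 46.7 to 78.4) and 0 untreated. The SOX2 window also lies within SOX2-OT, a long RNA gene of the same locus, and its reads cannot be divided between them. SYT1, BEX1 and SOX2 have overlapping intervals. The rule sets no read minimum. SOX2 was the lowest of the members at 0 untreated reads, and SPARCL1, an astrocyte gene outside the group, had 60 with DMSO and 0 untreated.

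MBP did not share the pattern. Its window (chr18:77130684-77136683, ENSG00000197971.15) had 8 reads with DMSO (interval 3.45 to 15.8), against 1 untreated read (interval 0.0253 to 5.57). The counts were low in both libraries and their intervals overlap. RefSeq lists 2 MBP promoters, of which the window holds the upstream one, known as the start of the Golli transcripts. The downstream start, from which the myelin protein is known to be made, lies outside the window and was not counted.

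**Figure D1:**
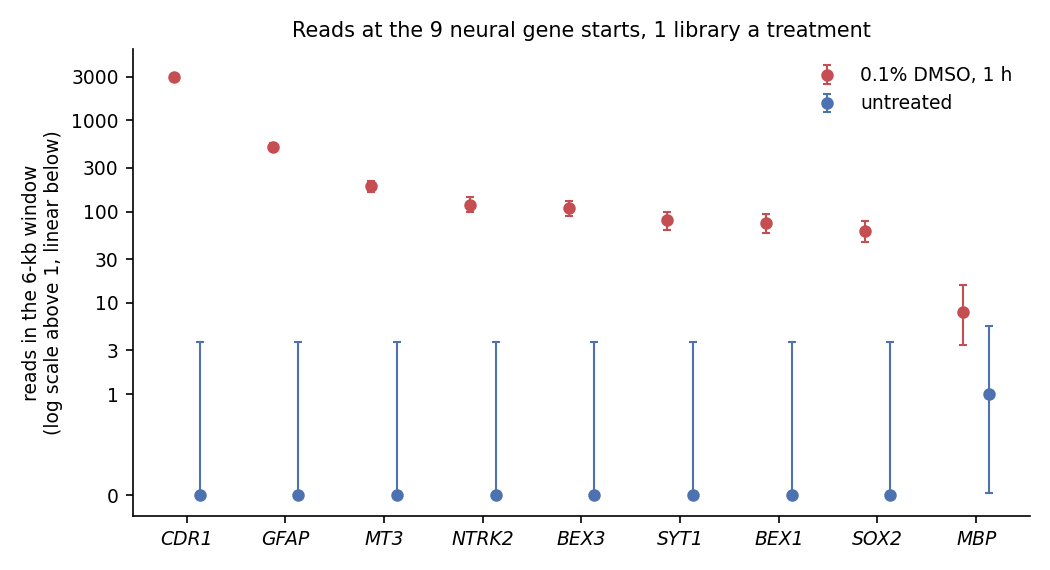
Reads of each of the 9 genes in its 6000-base window, with DMSO (red) and untreated (blue), on an axis that is logarithmic above 1 read and linear below. Bars are exact 95% Poisson intervals, which cover counting error only. For 8 genes DMSO reads lie between 61 and 2985 and untreated reads at 0, and MBP has 8 and 1.

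The libraries differ in depth, so untreated reads were also set against what the ratio of the median window would give. That window is the median of the 6591 that passed a floor of 5 CPM on average and 100 reads in all, and at its ratio 4.72 DMSO reads go with 1 untreated read. At that ratio CDR1 would have had 633 untreated reads, GFAP 109, MT3 39.9 and NTRK2 25.2. BEX3 would have had 22.9, SYT1 17.0, BEX1 15.7 and SOX2 12.9. All 8 had 0. MBP would have had 1.70 and had 1, so its count lies at the level of the median window.

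As a fold relative to the median window, with 3 reads put for the untreated 0 as a bound, CDR1 was 211-fold higher with DMSO and GFAP 36.3-fold. MT3 was 13.3-fold higher, NTRK2 8.41-fold and BEX3 7.63-fold. SYT1 was 5.65-fold higher, BEX1 5.23-fold and SOX2 4.31-fold. The exact Clopper-Pearson 95% lower limits lay below these values, at 171-fold for CDR1, 29.4-fold for GFAP, 10.7-fold for MT3 and 3.40-fold for SOX2. MBP stood at 1.70-fold, with an exact Clopper-Pearson 95% interval of 0.227 to 75.3. So 8 of the 9 were at least 2-fold higher by this bound, which takes 3 reads for any untreated count under 3, against 3.37% of the 29285 windows with a read. Scaled by library totals instead, 7986 of these windows were, in place of 988, and the members stayed at 8. The choice of the members fixes this count, and nothing is read from it. Reads carry no molecular identifiers, so all intervals and bounds cover counting error only.

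**Figure D2:**
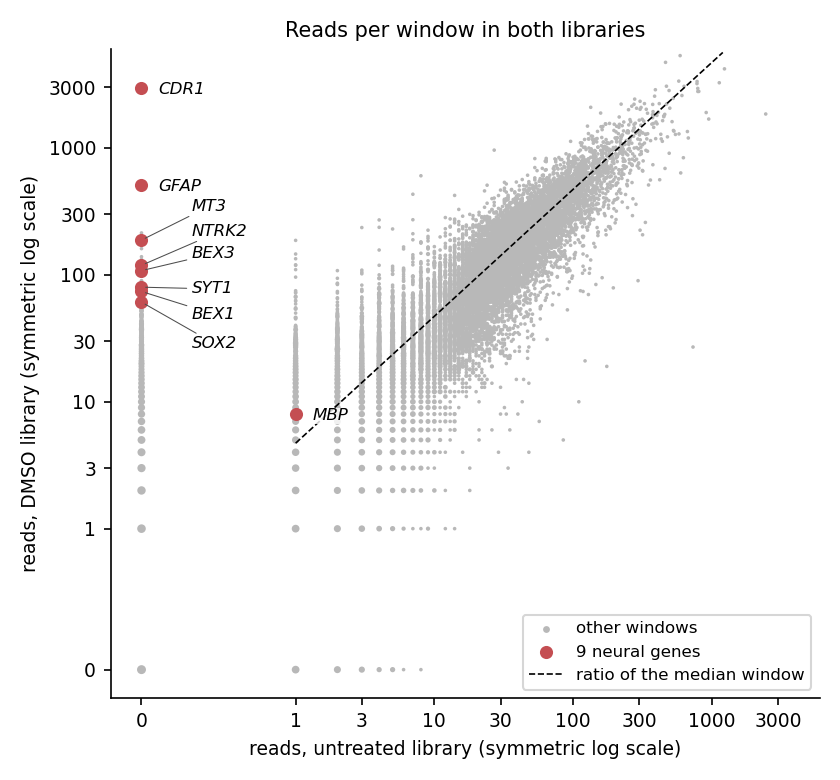
Reads of every window under 6000 reads in the untreated (x) and the DMSO library (y), on axes logarithmic above 1 and linear below, with larger grey points for more windows. The dashed line is the ratio of the median window. CDR1 at 2985 and GFAP at 514 DMSO reads stand above all other windows at 0 untreated reads, and MBP lies near the line.

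Windows with DMSO counts like those of the members rarely lacked untreated reads. The 9 other windows within 10% of the DMSO count of CDR1 had 392 to 1132 untreated reads, with a median of 782. The 322 windows like GFAP had 24 to 421, with a median of 93, and the 684 like MT3 had 1 to 151, with a median of 40. Every one of these windows had untreated reads, unlike CDR1, GFAP and MT3 themselves.

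At lower counts a few windows shared the pattern. Of 675 windows like NTRK2 3 had 0 untreated reads (0.444%), and of 651 like BEX3 4 did (0.614%). The figures were 6 of 696 for SYT1 (0.862%), 4 of 660 for BEX1 (0.606%) and 13 of 660 for SOX2 (1.97%). Of 574 windows like MBP, 236 had 0 untreated reads (41.1%) and the median was 1, the count of MBP. Of all 7404 windows with at least 61 DMSO reads, 29 (0.392%) had 0 untreated reads, and 8 of those 29 are members. The cutoff of 61 is the count of SOX2, and the members were picked with these counts in view. The choice thus fixes the 8 of 29, and nothing is read from it.

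**Figure D3:**
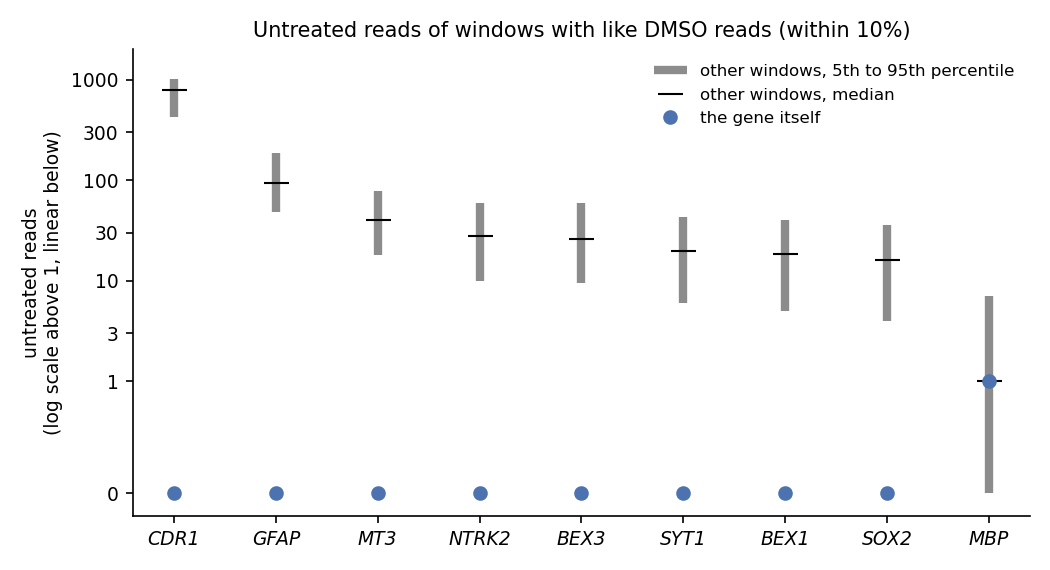
Untreated reads of each gene (blue) and of the other windows whose DMSO reads lie within 10% of its own, as median (black) and 5th to 95th percentile (grey), on an axis logarithmic above 1 and linear below. The median falls from 782 at the DMSO count of CDR1 to 16 at that of SOX2, while the genes other than MBP lie at 0.

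The members do not share a chromosome or a gene size. CDR1, BEX1 and BEX3 lie on the X chromosome and the other 6 on different autosomes. The RefSeq genes of MT3 (1558 bases), BEX1 (1521), BEX3 (1842) and SOX2 (2512) lie wholly in their windows. The windows of NTRK2, SYT1 and MBP hold 0.845%, 0.512% and 1.95% of their genes. Spliced RNA was not separated from nascent RNA here, and in a window that holds a whole gene it would be counted in full.

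The next windows along the chromosome mostly had few reads. KIF18B, beside GFAP, had 1 read with DMSO and 0 untreated, and MT4, beside MT3, had 0 in both. On its other side MT3 has MT2A, a stress-induced metallothionein, with 72 with DMSO and 4 untreated. AC125613.1, 5.31 kb from the SOX2 window, was itself read with DMSO only, with 29 reads and 0 untreated. The windows next to NTRK2 were SLC28A3, with 0 in both, and AL354897.1, with 1 in each library.

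In the BEX and TCEAL family, which share a region of the X chromosome, some genes were read in both libraries and others with DMSO only. BEX4 had 409 reads with DMSO and 107 untreated, and TCEAL8 had 90 with DMSO and 27 untreated. TCEAL9 had 58 with DMSO and 18 untreated, and BEX2 had 52 with DMSO and 16 untreated. Relative to the median window these 4 genes stood at 0.810-fold (interval 0.654 to 1.01), 0.707-fold, 0.683-fold and 0.689-fold. TCEAL3, TCEAL2 and TCEAL5 had 40, 38 and 15 reads with DMSO and 0 untreated. Over all windows 2.69% had at least 10 DMSO reads and 0 untreated reads. In the family 5 of 14 did, of which BEX1 and BEX3 were picked for this pattern. The windows of BEX3 and its neighbour TCEAL9 lie 13.9 kb apart and differed in this pattern.

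The palindrome CACGTG of the BEX1 and BEX3 promoters was found in promoters of 11 of the 13 family genes that RefSeq lists, all but BEX5 and TCEAL9. Its holders included TCEAL2 and TCEAL3, read with DMSO only like BEX1 and BEX3, and also BEX4 and TCEAL8, read in both libraries.

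**Figure D4:**
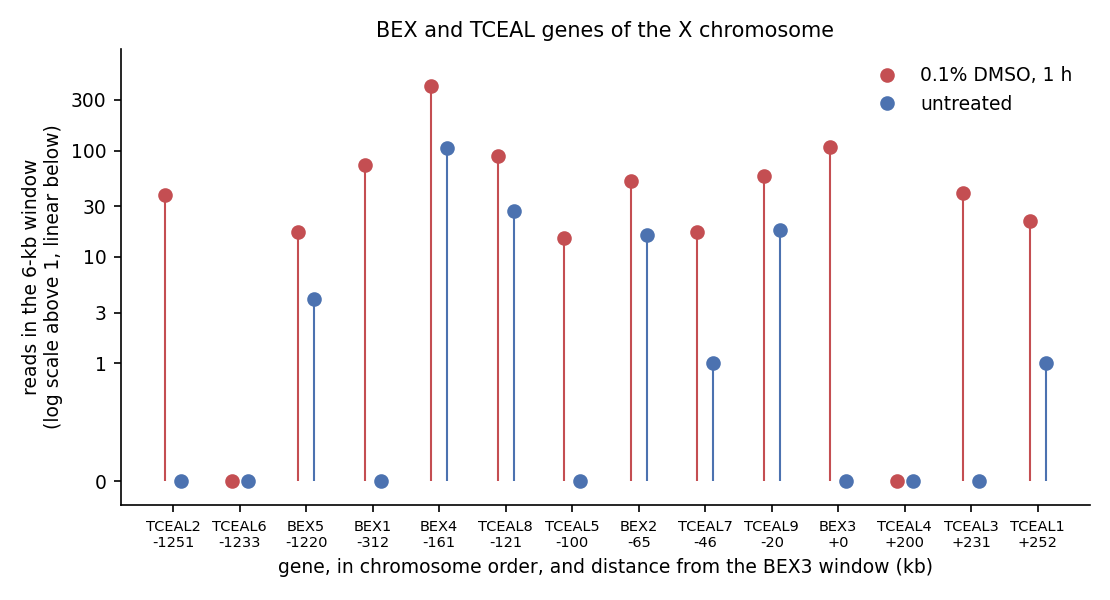
Reads of the 14 BEX and TCEAL genes in chromosome order, with DMSO (red) and untreated (blue), on an axis logarithmic above 1 read and linear below; numbers under the names are distances from the BEX3 window in kb. BEX4, TCEAL8, BEX2 and TCEAL9 have reads in both libraries, while BEX1, BEX3, TCEAL2, TCEAL3 and TCEAL5 have DMSO reads only.

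Metallothioneins buffer zinc and copper. MT2A stood at 3.82-fold relative to the median window (interval 1.43 to 14.4). MT1E and MT1M had 20 and 13 reads with DMSO and 0 untreated, and SLC30A1, a zinc exporter, had 412 with DMSO and 55 untreated. The list of 13 windows holds SLC30A1 and MTF1 beside the metallothioneins. Including MT3, which was picked for this pattern, 3 of the 13 windows had at least 10 DMSO reads and 0 untreated reads. Over all windows 2.69% did. MT1 genes are near copies, so their counts are uncertain.

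Among neurotrophins and their receptors NTRK2 was the highest of those without untreated reads. NTRK3, the receptor for neurotrophin-3, had 13 with DMSO and 0 untreated, and SORCS3, a sortilin relative, had 9 with DMSO and 0 untreated. SORT1, the sorting receptor sortilin, had 450 with DMSO and 53 untreated. The ligand BDNF had 3 with DMSO and 0 untreated.

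Of the 26 windows of synaptotagmins and other genes of vesicle release, 13 were read in both libraries and 13, SYT1 among them, had 0 untreated reads. STX1A, a syntaxin of the fusion machinery, had 192 reads with DMSO and 21 untreated. SYT5 had 146 with DMSO and 87 untreated, which is 0.356-fold relative to the median window (interval 0.271 to 0.469). SYT15 and SYT7 had 27 and 16 with DMSO and 0 untreated. With SYT1, 3 of 26 windows had at least 10 DMSO reads and 0 untreated reads, against 2.69% of all windows. SYT1 was picked for this pattern.

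Among SOX genes, SOX12 had 726 reads with DMSO and 171 untreated, and SOX15 had 499 with DMSO and 95 untreated. SOX9, a glial and cartilage factor, and SOX5 had 54 and 9 with DMSO and 0 untreated. SOX2 and SOX9 were the 2 of 20 with at least 10 DMSO reads and 0 untreated reads, against 2.69% of all windows. SOX2 was picked for this pattern. Of 17 intermediate filament windows GFAP, also picked for it, was the only such one. LMNB2, a nuclear lamin, had 339 with DMSO and 45 untreated, and VIM and SYNM had 5 and 4 with DMSO and 0 untreated. Neuronal filament genes differed in direction. INA, alpha-internexin, had 72 with DMSO and 1 untreated, whereas PRPH, peripherin, had 14 with DMSO and 23 untreated, or 0.129-fold relative to the median window (interval 0.0614 to 0.262). NEFL, NEFM, NEFH and LMNA had 0 in both libraries in windows with at most 490 bases of their own, so they could hardly be counted.

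Myelin genes had a median of 8 reads with DMSO and 0 untreated, close to the counts of MBP. PMP2 of peripheral myelin had 17 reads with DMSO and 0 untreated. OPALIN had 8 with DMSO and 0 untreated. MAG had 10 with DMSO and 1 untreated. CNP, a myelin enzyme also made in other cells, had 629 with DMSO and 92 untreated.

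Marker lists of neural cells, chosen with earlier results of these data known, held more windows of this kind than all windows did. Of the 111 windows in lists of neurons, astrocytes, oligodendrocytes and neural progenitors, which leave out the members, 19 (17.1%) had at least 10 DMSO reads and 0 untreated reads, against 2.69% of all windows. By list these were 7 of 40 neuronal, 9 of 28 astrocyte, 2 of 23 oligodendrocyte and 1 of 20 progenitor windows. The lists for microglia and brain vessels gave 2 of 14. Among windows with at least 10 DMSO reads, 19 of 49 in the neural lists had 0 untreated reads, against 7.08% of all 14010 such windows. The share falls as DMSO reads rise, to 0.392% of the 7404 windows with at least 61. The 19 neural windows had 10 to 60 DMSO reads, so this comparison is not matched for DMSO count. These shares were not tested.

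Lists of other organs did not all stand lower. The liver list gave 5 of 19 (26.3%), a larger share than neurons. The muscle, heart and other organ lists together gave 0 of 48, where 7 windows had 10 DMSO reads or more. The 27 erythroid windows, which check the label K562, gave 0 and had 5636 reads with DMSO and 1647 untreated, led by TFRC with 1179 with DMSO and 432 untreated and KLF1 with 807 with DMSO and 234 untreated. K562 markers were thus present in both libraries. Relative to the median window the summed erythroid list stood at 0.725-fold, TFRC at 0.579-fold and KLF1 at 0.731-fold. ZFPM1 of the same list went the other way, at 2.65-fold.

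The neural lists showed low counts in most members. With DMSO the median was 7.5 reads in neuronal, 12 in astrocyte, 9 in oligodendrocyte and 3.5 in progenitor windows, and untreated it was 0 in all 4 lists. Over all windows the medians were 4 reads with DMSO and 1 untreated. Of the neuronal windows 10 had 0 reads in both libraries, and 8 of those had under 1 kb of their own. In summed level the neuronal list stood at 388 CPM with DMSO and 106 CPM untreated, and the astrocyte list at 948 CPM with DMSO and 252 CPM untreated. Relative to the median window the summed reads were only 1.51-fold higher with DMSO in the neuronal list and 1.55-fold in the astrocyte list. The oligodendrocyte list stood at 1.52-fold and the progenitor list at 1.23-fold. The liver list stood higher than all of these, at 2.91-fold, while muscle and heart stood at 1.03-fold and other organs at 0.952-fold. CPM are taken of library totals, of which 45S ribosomal RNA windows took 42.2% with DMSO and 71.5% untreated. The part of RNA from neural cells in the reads of the 9 genes was not tested.

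The neuronal genes with most DMSO reads and 0 untreated reads were NRGN, a postsynaptic calmodulin-binding protein, with 52, SYN1, a synaptic vesicle protein, with 49, and CAMK2A, a synaptic kinase, with 34. VGF and ELAVL3 were read in both libraries, with 426 and 275 reads with DMSO and 85 and 60 untreated. They lay at 1.06-fold and 0.972-fold relative to the median window. Neuronal genes therefore differed among themselves.

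Among astrocyte genes SPARCL1, SOX9 and SLC1A3, a glutamate transporter, had 60, 54 and 43 reads with DMSO and 0 untreated. AQP4, the water channel of astrocyte endfeet, had 10 with DMSO and 0 untreated, and the glutamate transporter SLC1A2 had 2 with DMSO and 0 untreated. ATP1B2, a sodium pump subunit of glia, went the other way, with 2 with DMSO and 10 untreated, or 0.0424-fold relative to the median window (interval 0.00452 to 0.199). APOE had 1539 with DMSO and 198 untreated, and GLUL, glutamine synthetase, had 1014 with DMSO and 203 untreated. Both are also known from many other cells.

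Of the oligodendrocyte genes OLIG2, a lineage transcription factor, and GPR17 had 20 and 16 reads with DMSO and 0 untreated, and CSPG4 had 9 with DMSO and 0 untreated. PPP1R14A, after CNP, had most reads in both libraries, with 172 with DMSO and 37 untreated. Of the progenitor genes POU3F3 and SOX1 had 15 and 7 with DMSO and 0 untreated, and NES, the filament nestin, had 36 with DMSO and 6 untreated. PAX6, a factor of eye and forebrain progenitors, had 19 with DMSO and 15 untreated, or 0.269-fold relative to the median window (interval 0.129 to 0.568). C1QA and CSF1R, genes of microglia and other macrophages, had 23 and 17 with DMSO and 0 untreated. CLDN5, a tight junction gene of vessels and the most read of that list, had 134 with DMSO and 89 untreated, which is 0.319-fold relative to the median window (interval 0.242 to 0.422).

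In the liver list the windows with DMSO reads only were led by TF, transferrin, with 58, CYP3A4 with 38 and APOB with 18. TF is known from oligodendrocytes as well as from liver. In the other organ lists ACTA1, skeletal actin, had 180 with DMSO and 8 untreated and NPPA, a natriuretic peptide, had 154 with DMSO and 63 untreated. NPHS1, of the kidney filter, had 75 with DMSO and 1 untreated, a ratio of 15.9 relative to the median window with an interval of 2.77 to 636.

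**Figure D5:**
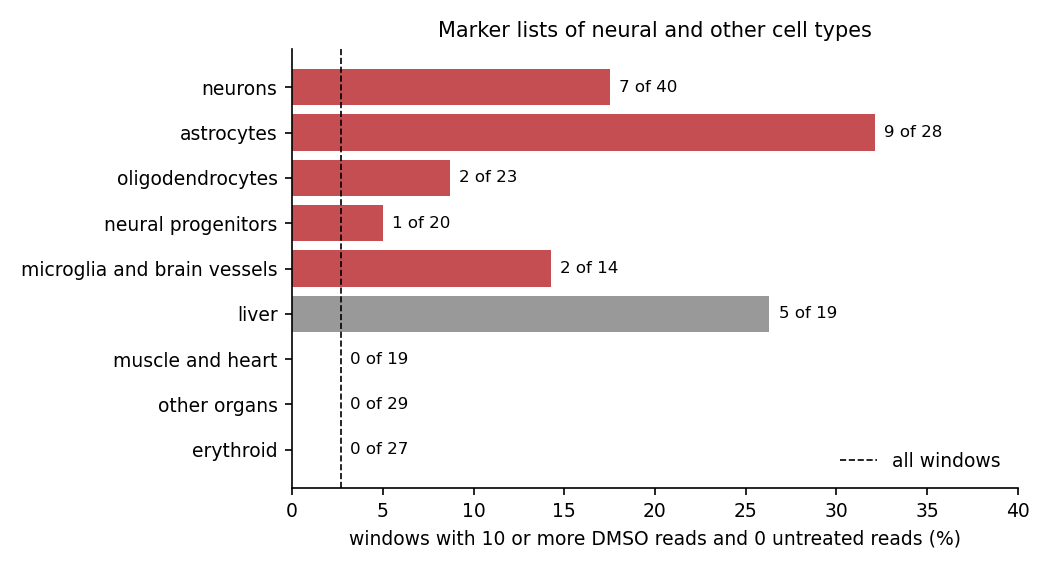
Share of windows with at least 10 DMSO reads and 0 untreated reads in each marker list, with neural and brain lists in red, others in grey and all windows (2.69%) as a dashed line. Astrocytes (9 of 28) and liver (5 of 19) have the largest shares, and muscle and heart, other organs and erythroid genes have 0.

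The 10 windows most like the members, those with most DMSO reads among windows at 0 untreated reads, ranged from 89 to 214 reads with DMSO. AL117190.2, inside MEG3, had 214, and 3 windows of SNHG14, an imprinted transcript, had 161, 132 and 116, namely AC124312.2, SNHG14 and AC124312.3. AC008738.7, which overlaps LRP3 and the astrocyte amino acid transporter SLC7A10, had 139. HEPN1, which overlaps the glial adhesion gene HEPACAM, had 106, AF106564.1, which overlaps the neurofilament gene NEFM, had 90, and Z94160.2, inside ELFN2, had 89.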

How the data were processed

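The authors deposited read counts of 2 PRO-seq libraries in windows of 6000 bases around gene starts on hg38. The submitters' processing notes name Bowtie2 2.3.5 and featureCounts 2.0.1. Deposited TPM values of the authors equalled the CPM computed here in all 36814 windows (tolerance 1e-06) and were not used further. All 1154 windows with no base of their own held 0 reads, so reads in shared bases are missing whatever the strand. The members and all gene lists were chosen with earlier results of these data known. For scaling, edgeR 4.0.16 (R 4.3.3) gave TMM factors, which were centred on the median log2 ratio, 0.31 with a prior of 0.5 reads, of windows past the floor. Poisson and Clopper-Pearson intervals used scipy 1.17.1. The scaling was also tested on simulated data. No test between treatments was made, since each has 1 library, of 4154920 reads with DMSO and 2136291 untreated. Named were the 9 members, their neighbours, the windows with DMSO reads only that have most reads, and from each list the 3 genes with most DMSO reads at 0 untreated reads and the 2 with most reads in both libraries. Other genes were picked for the text with their values known. Some genes that the rule names are not reported here. Alternatives covered scaling (library totals, DESeq2 1.42.0, uncentred TMM, totals outside ribosomal and mitochondrial windows), thresholds, floor and overlap.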

Additional observations from a re-analysis of the deposited data

How the results depend on the processing

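No paired analysis was possible because only 1 library per treatment was at hand, which also leaves no replicate to omit. The log2 bounds of the 8 members at 0 untreated reads stayed positive under all scalings and with 1 or 3.69 reads put for 0, from 1.81 (SOX2, lowest) to 9.31 (CDR1, highest), and MBP ranged from 0.76 to 2.04. Centring makes the DESeq2 setting equal to the main one by construction. The counts of members stayed at 8 at 4-fold, in windows without overlap and under all scalings, and were 5 at 100 DMSO reads and 5 by both counts at the floor of 5 CPM and 100 reads.

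For at least 10 DMSO reads and 0 untreated reads, a minimum of 5 reads gave 12 neuronal, 5 oligodendrocyte, 2 progenitor, 4 microglial and vessel, 8 liver, 2 muscle and heart and 2860 of all windows. At 20 reads there were 4 astrocyte, 1 oligodendrocyte, 0 progenitor, 1 microglial and vessel, 2 liver and 278 of all windows. At 100 reads and at the floor every one of these lists gave 0, and all windows gave 13. Without overlap progenitors gave 0.

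For windows at least 2-fold higher by the bound (7 neuronal, 6 astrocyte, 3 oligodendrocyte, 0 progenitor, 0 microglial and vessel, 2 liver, 1 muscle and heart, 1 other organ, 1 erythroid, 988 in all), library totals gave 16, 13, 7, 5, 2, 5, 2, 8 erythroid and 7986 in all, with other organs still at 1. At 4-fold there were 2 neuronal, 1 astrocyte, 0 oligodendrocyte, 1 liver, 0 erythroid and 124 of all windows. Uncentred TMM gave 1 progenitor, 1 microglial and vessel and 1899 of all windows, and totals outside ribosomal and mitochondrial windows 1 progenitor. The floor gave 0 neuronal, 2 astrocyte, 0 liver, 0 other organ and 474 of all windows; windows without overlap gave 1 oligodendrocyte and 0 other organ. The cause was not tested beyond the fact that floors and thresholds change how many windows are counted. Depth limits the untreated library, where 3 reads make 1.40 CPM.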

Other observations

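Genes of the complex that silences neuronal genes in other cells were read in both libraries. REST, the factor that binds the silencer element, had 357 reads with DMSO and 43 untreated, which is 1.76-fold relative to the median window (interval 1.28 to 2.48). Its corepressor gene RCOR1 had 533 with DMSO and 134 untreated, and SMARCA4, a chromatin remodeller, had 584 with DMSO and 120 untreated. None of the 14 windows of this list was at least 2-fold higher with DMSO by the bound. The share among all windows with a read was 3.37%. A list of 14 windows is too short to tell 0 from that share, so nothing is read from this count. The 14 include EHMT2, which had 0 in both libraries in a window with 97 bases of its own. EHMT2 is thus not among the windows with a read.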
